A study of Mus musculus with 8 samples.

Results

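The matrix metalloproteinases (Mmp), the ADAMTS proteases (Adamts) and the tissue inhibitors of metalloproteinases (Timp) were described together in lung endothelial cells of tumor-bearing mice. The members were taken by gene symbol alone: Mmp or Adamts followed by a number, with an a or b allowed after an Mmp number, or Timp followed by a digit. This gave 43 of the 19505 named genes on the array, namely 21 Mmp, 18 Adamts and 4 Timp genes, each read by a single probe set. RNA had been hybridized to Clariom S mouse arrays, a 1-colour array that returns a brightness (intensity) per probe set, here put on the log2 scale. The mice were 8 weeks old, of strain C57BL/6N (written C57BL\6N in the labels), and all carried subcutaneous tumors of LLC cells, a mouse lung carcinoma line. They were injected intraperitoneally 2 times per week with an antibody that blocks TIE1 (4 arrays, anti-TIE1 1 to 4) or with IgG (4 arrays, IgG 1 to 4). TIE1 is a receptor of endothelial cells without a well-defined ligand of its own, and the question asked was what its blockade does to the endothelium of the organ where metastases form.

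Live cells had been sorted that carried CD31 but none of CD45, LYVE1, PDPN or Ter119, a gate that keeps vessels of every calibre together. A group mean is therefore a mean over vessel types, and in such bulk RNA fewer cells of a type and less RNA per cell cannot be told apart. The antibody field of 3 of the 4 samples titled anti-TIE1 names other targets, so groups follow the titles. The labels name lung as the source but liver in the dissociation protocol. All 10 markers of lung capillary endothelium lay above background (the brightest background probe set of an array) on all 8 arrays, whereas of 8 markers of liver sinusoidal endothelium 0 did so on all arrays and 5 did so on none. The authors' normalization left array medians at 184 to 189.6 in linear intensity. Over 22204 probe sets tested with limma, a linear model per probe set with spread moderated across probe sets, 0 passed an adjusted p under 0.05 (0.0%), the smallest adjusted p being 0.344. Before adjustment, 482 probe sets were higher and 700 lower at a p under 0.05. Precision is limited by the small number of arrays.

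Mmps and Adamts proteases are zinc enzymes that cut the collagens, laminins and proteoglycans of the extracellular matrix. Endothelial cells use them to loosen the basement membrane when a vessel sprouts or when a cell crosses the vessel wall, and to release growth factors and receptor ectodomains. Most are made as inactive proenzymes, and the Timps plug their active sites, so the activity in a tissue depends on proteases, activators and inhibitors together and is not read by RNA.

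The proximal promoters are shown first, because those of a group of Mmp genes on chromosome 9 differed in sequence from those of members above the array background. In mice, 7 Mmp genes follow each other on chromosome 9 with no other protein-coding gene between them (Mmp13, Mmp12, Mmp1b, Mmp3, Mmp1a, Mmp10 and Mmp8), with Mmp20 and Mmp7 next to each other on the same chromosome. RefSeq promoter windows (GRCm38.p6) were matched for 29 of the 43 members, 32 windows in all. The last 120 bases before the transcription start are printed 5′ to 3′ for 6 of the 7 genes of these chromosome 9 groups that held both an AP-1 match and a TATA box close to the start, chosen after the search. Capitals mark matches, on either strand, to the AP-1 motif TGANTCA, bound by Fos and Jun proteins, to the TATA box, written TATAAA, to the motif of SP and KLF proteins, GGGCGG, or to the forkhead motif, TGTTTAC. No match overlapped one of another motif in the windows shown.
Mmp13, chr9:7272394-7272513, plus strand: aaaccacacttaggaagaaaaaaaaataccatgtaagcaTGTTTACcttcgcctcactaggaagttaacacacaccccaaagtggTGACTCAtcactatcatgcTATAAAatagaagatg
Mmp3, chr9:7445702-7445821, plus strand: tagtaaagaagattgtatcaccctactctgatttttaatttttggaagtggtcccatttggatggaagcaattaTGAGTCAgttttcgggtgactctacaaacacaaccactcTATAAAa
Mmp1a, chr9:7464021-7464140, plus strand: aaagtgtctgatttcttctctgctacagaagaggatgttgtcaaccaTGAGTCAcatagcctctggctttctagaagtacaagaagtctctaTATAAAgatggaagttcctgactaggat
Mmp1b, chr9:7388027-7388146, minus strand: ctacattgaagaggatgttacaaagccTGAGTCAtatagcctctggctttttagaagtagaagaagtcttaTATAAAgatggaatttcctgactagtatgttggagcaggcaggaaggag
Mmp10, chr9:7502222-7502341, plus strand: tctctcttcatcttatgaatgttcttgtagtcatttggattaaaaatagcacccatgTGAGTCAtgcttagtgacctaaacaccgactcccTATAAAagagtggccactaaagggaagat
Mmp20, chr9:7628111-7628230, plus strand: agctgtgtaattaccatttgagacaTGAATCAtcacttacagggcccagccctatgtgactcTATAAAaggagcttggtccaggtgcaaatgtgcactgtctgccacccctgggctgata

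In all 6, which were chosen for holding both matches, the AP-1 match lay upstream of the TATA box. The first letters of these matches lay 19 bases apart in Mmp13, 34 in Mmp10, 37 in Mmp20, 39 in Mmp3, 44 in Mmp1b and 45 in Mmp1a. Mmp7, not printed, had them 37 bases apart, Mmp12 held an AP-1 match 44 bases before its start and no TATAAA, and Mmp8 held none of the 4 motifs. In the 250 bases before the start, the AP-1 motif was found in 8 of 19 Mmp windows (42.1%), in 0 of 9 Adamts windows and in 0 of 4 Timp windows, and in 6.75% of all 32851 windows of the table. Both motifs together occurred in 7 of 19 Mmp windows (36.8%), against 1.21% of all windows. TATAAA, with or without AP-1, was found in 8 of 19 Mmp windows (42.1%) and 12.4% of all windows. The forkhead motif was found in 2 of 19 Mmp windows (10.5%) and 3.17% of all windows.

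A contrasting set of windows belongs to 7 members whose signal stood above the array background on all 8 arrays and that held an SP and KLF match. Mmp24, at an unadjusted p under 0.05 in the comparison of treatments, is added. The window of Adamts12, also above background, held none of the 4 motifs and is not printed.
Adamts1, chr16:85803114-85803233, minus strand: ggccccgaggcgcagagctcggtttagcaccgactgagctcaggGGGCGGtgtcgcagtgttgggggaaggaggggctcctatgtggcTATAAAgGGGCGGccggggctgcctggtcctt
Adamts9, chr6:92943535-92943654, minus strand: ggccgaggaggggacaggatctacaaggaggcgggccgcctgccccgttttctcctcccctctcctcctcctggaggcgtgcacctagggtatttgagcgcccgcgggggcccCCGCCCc
Mmp11, chr10:75932503-75932622, minus strand: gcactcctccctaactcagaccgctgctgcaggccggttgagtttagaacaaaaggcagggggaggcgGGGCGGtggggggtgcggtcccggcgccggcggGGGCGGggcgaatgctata
Mmp14, chr14:54431478-54431597, plus strand: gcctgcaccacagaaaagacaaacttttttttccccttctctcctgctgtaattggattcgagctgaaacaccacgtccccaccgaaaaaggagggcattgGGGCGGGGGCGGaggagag
Mmp28, chr11:83463041-83463160, minus strand: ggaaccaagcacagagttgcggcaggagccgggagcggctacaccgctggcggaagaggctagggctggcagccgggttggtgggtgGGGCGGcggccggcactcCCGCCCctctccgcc
Timp2, chr11:118355412-118355531, minus strand: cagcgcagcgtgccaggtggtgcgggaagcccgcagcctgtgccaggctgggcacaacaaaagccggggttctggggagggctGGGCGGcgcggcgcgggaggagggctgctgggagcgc
Timp3, chr10:86300292-86300411, plus strand: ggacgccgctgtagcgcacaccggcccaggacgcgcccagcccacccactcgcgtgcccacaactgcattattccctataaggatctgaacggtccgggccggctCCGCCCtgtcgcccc
Mmp24, chr2:155775222-155775341, plus strand: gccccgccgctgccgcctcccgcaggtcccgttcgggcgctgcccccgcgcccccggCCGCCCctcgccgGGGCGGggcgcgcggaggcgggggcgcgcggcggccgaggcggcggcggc

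In this second set 7 windows were chosen for holding GGGCGG or its reverse complement, and the added window of Mmp24 held it too. Adamts1 also held a TATA box 32 bases before its start. Of the members above background on all arrays, 7 of 8 with a window held GGGCGG (87.5%) and 0 of 8 held the AP-1 motif. For members within the background range on all arrays, the same motifs were found in 5 of 22 windows (22.7%) and 8 of 22 windows (36.4%). All 8 windows with AP-1 belonged to the chromosome 9 groups, and the 5 with GGGCGG lay outside them. The AP-1 contrast is therefore between these neighbouring genes and the other members, and not between signal levels as such. The chromosome 9 windows, which held no GGGCGG, also lower the share of 22.7%, so the GGGCGG contrast is not one of signal levels alone. GGGCGG was present in 32.7% of all windows. The 8 Mmp windows with an AP-1 match had a GC content of 37.2% to 45.6%, against 55.2% to 71.2% in the 8 windows of members above background, so base composition differed together with the motifs. Matches describe the letters only, and binding was not measured.

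**Figure D1:**
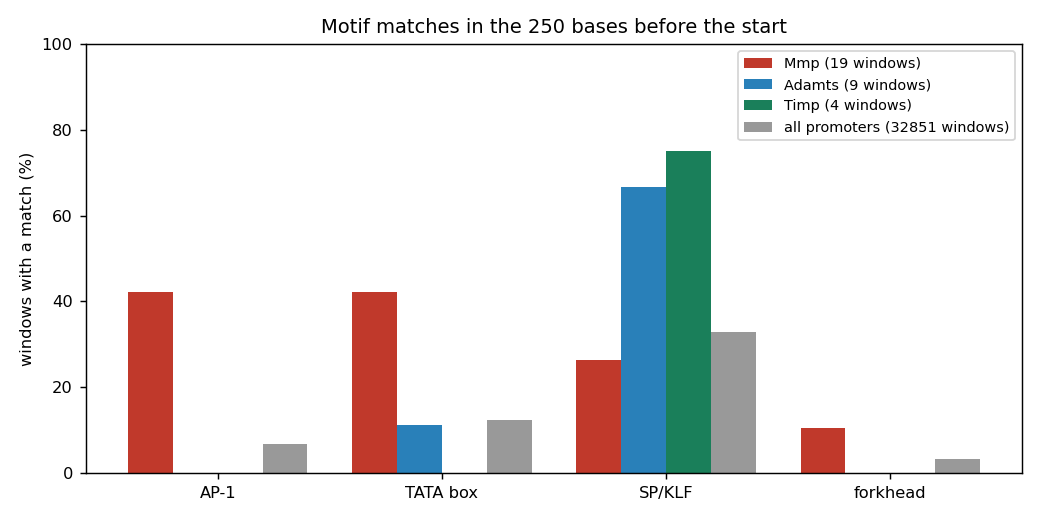
Share of promoter windows (y axis, percent, 250 bases before the start) that held each of 4 motifs (x axis), for Mmp, Adamts and Timp genes and for all 32851 windows. AP-1 matches were found in 42.1% of the Mmp windows and in no Adamts or Timp window, while SP/KLF matches were most frequent in Timp (75.0%) and Adamts (66.7%) windows.

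Background was taken on each array as the brightest of its 23 background probe sets, which lay between 7.81 and 7.91 (log2). The dimmest of the 23 lay between 5.51 and 5.71, so this limit is strict, and a probe set below it may still hold signal. Which background probe set suits a given gene was not tested. Of the members, 9 exceeded it on all 8 arrays, 4 on some arrays and 30 on none. The median level of all tested probe sets was 7.54, below this limit, so most probe sets of the array also had a mean below it. A reading in the background range is thus not particular to these families. The 9 were Mmp14, Mmp28, Mmp11, Adamts1, Adamts10, Adamts9, Adamts12, Timp2 and Timp3. For the 30, a value says only that the probe set was not above this strict limit. Timp1, Mmp16 and Mmp24 exceeded background on 1 array each, so that 33 members stood above it on no array of at least 1 treatment. Their readings are given as values with no fold change, and treatment differences are given for the other 10, the 9 and Mmp2.

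None of the 43 members passed an adjusted p under 0.05, the smallest adjusted p among them being 0.930 by limma. At an unadjusted p under 0.05, 1 member read higher (Mmp9) and 1 lower (Mmp24) in anti-TIE1-treated mice, both among the 33, together 4.65% of the members against 5.32% of all probe sets (2.17% higher and 3.15% lower). The exact Mann-Whitney test is among those the study names for comparisons of 2 groups, though not for the arrays. At an unadjusted p under 0.05 it gave 0 higher and 2 lower members. The smallest p it allows with 4 against 4 arrays is 0.0286, so it could hardly call any member after adjustment. That it called 0 carries no information. Values did not overlap between treatments for 2 members (4.65%), Mmp24 and Mmp1b, also among the 33, against 3.17% of all probe sets. Both shares were near those of the array as a whole. The mean reading, background range included, was higher in anti-TIE1-treated mice for 20 members and lower for 23, with a median log2 difference of -0.0059 for the members and -0.0045 for all probe sets. For the 10 members with a fold change, 4 were higher and 6 lower in the mean, and log2 differences ran from -0.19 to 0.16, with standard errors of 0.064 to 0.15. Their 95% intervals all held 0 and ended at or inside 1.37-fold in either direction.

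**Figure D2:**
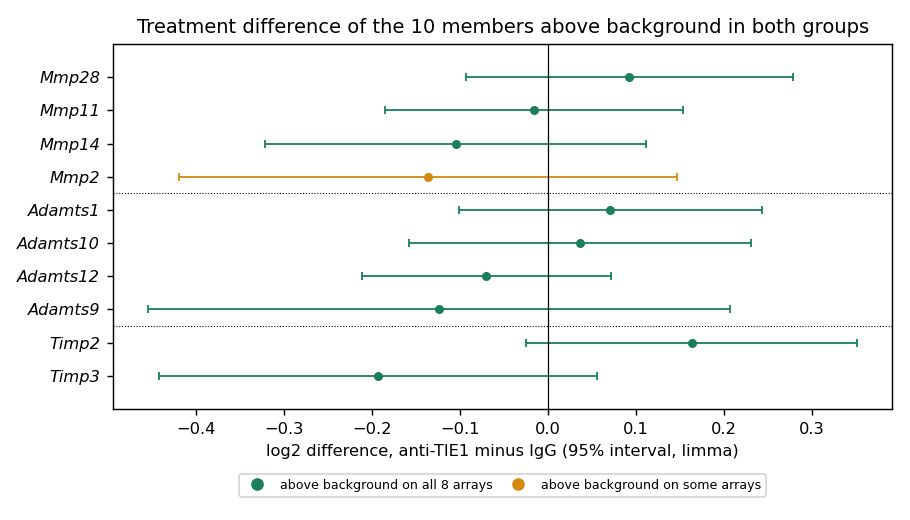
Log2 difference, anti-TIE1 minus IgG, of the 10 members above background on arrays of both treatments, with the 95% interval from limma (x axis), by family from Mmp at the top to Timp at the bottom. Colours give the arrays on which a member stood above background; all 10 intervals hold 0, and the differences lie between -0.19 (Timp3) and 0.16 (Timp2).

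The inhibitors are described first. Timp2, which blocks most Mmps and also takes part in the activation of pro-Mmp2 at the cell surface, had log2 intensities of 11.01, 11.13, 11.09 and 11.25 on the anti-TIE1 arrays, against 11.13, 10.90, 10.86 and 10.93 on the IgG arrays. The groups overlapped only through IgG 1, which was at the level of anti-TIE1 2. The log2 difference was 0.16 (standard error 0.085, 95% interval -0.024 to 0.35, exact permutation p = 0.114, limma adjusted p = 0.951). Timp3, the matrix-bound inhibitor that also blocks Adamts proteases and the sheddase Adam17, was at 8.64, 8.70, 8.27 and 8.79 on the anti-TIE1 arrays and 8.83, 8.81, 8.65 and 8.87 on the IgG arrays. Array anti-TIE1 3 was the lowest, and the other anti-TIE1 arrays lay within or just below the IgG range. The difference was -0.19 (standard error 0.11, 95% interval -0.44 to 0.056, exact permutation p = 0.143), and it ran from -0.26 (without anti-TIE1 4) to -0.083 (without anti-TIE1 3) with an array left out.

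Timp1, the inducible inhibitor, stood above background on array anti-TIE1 1 alone. It read 7.93, 7.58, 7.54 and 7.52 on the anti-TIE1 arrays, against 7.70, 7.73, 7.42 and 7.50 on the IgG arrays. Apart from anti-TIE1 1, the anti-TIE1 readings lay inside the IgG range. Timp4, the fourth inhibitor, was within the background range throughout, at 6.53, 6.38, 6.45 and 6.47 on the anti-TIE1 arrays and 6.74, 6.63, 6.48 and 6.36 on the IgG arrays, with the groups overlapping. The median difference of the 4 Timps, background readings included, was -0.018, with 2 higher and 2 lower, and it ran from -0.078 (without anti-TIE1 1) to 0.032 (without IgG 1) with an array left out.

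Of the Mmps, the membrane-anchored collagenase Mmp14, which activates pro-Mmp2, measured 8.87, 8.98, 8.83 and 8.75 on the anti-TIE1 arrays and 8.99, 9.12, 8.71 and 9.03 on the IgG arrays. IgG 3 was the lowest of all 8 arrays and the other IgG arrays were the highest, so the groups overlapped through that array. The difference was -0.10 (standard error 0.098, 95% interval -0.32 to 0.11, exact permutation p = 0.343), and with an array left out it ran from -0.19 (without IgG 3) to -0.051 (without IgG 2). Mmp2, a gelatinase that cuts type IV collagen, lay near the background, at 7.99, 7.96, 8.30 and 7.79 on the anti-TIE1 arrays and 8.16, 7.86, 8.19 and 8.36 on the IgG arrays. The groups overlapped over most of their range, with a difference of -0.14 (standard error 0.13) that ran from -0.23 (without anti-TIE1 3 or IgG 2) to -0.064 (without anti-TIE1 4 or IgG 4) with an array left out.

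Mmp28 (epilysin, a secreted Mmp of epithelia and other tissues) was above background throughout, at 8.74, 8.87, 8.94 and 8.69 on the anti-TIE1 arrays and 8.78, 8.59, 8.70 and 8.83 on the IgG arrays. Mmp11 (stromelysin-3, which furin activates inside the cell) read 8.37, 8.54, 8.50 and 8.40 on the anti-TIE1 arrays, against 8.41, 8.40, 8.61 and 8.45 on the IgG arrays. Both overlapped between treatments, with differences of 0.092 (standard error 0.084) for Mmp28 and -0.016 (standard error 0.076) for Mmp11. The membrane-type Mmp16 was at 7.60, 7.73, 7.63 and 7.38 on the anti-TIE1 arrays and 7.85, 7.75, 7.86 and 7.50 on the IgG arrays, above background on IgG 3 alone. IgG 4 lay among the anti-TIE1 arrays, and the other IgG arrays lay above them. Mmp23, a membrane-linked Mmp, stayed within the background range, at 7.62, 7.72, 7.70 and 7.74 on the anti-TIE1 arrays and 7.61, 7.60, 7.70 and 7.73 on the IgG arrays, and its groups overlapped.

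Mmp24, a membrane-type Mmp known mainly from nervous tissue, read 7.28, 7.31, 7.37 and 7.28 on the anti-TIE1 arrays, against 7.44, 7.42, 7.53 and 7.97 on the IgG arrays. The groups did not overlap, but IgG 4 was the only array above background and stood well over the other IgG arrays. The exact permutation p was 0.0286, the smallest that 4 against 4 arrays allow, and the limma adjusted p was 0.930. Without IgG 4, all remaining arrays were in the background range. Mmp9, the gelatinase stored in neutrophil granules, was in the background range on every array, at 7.02, 6.72, 6.82 and 6.93 on the anti-TIE1 arrays and 6.74, 6.29, 6.40 and 6.81 on the IgG arrays. IgG 1 and IgG 4 lay among the anti-TIE1 values, and IgG 2 and IgG 3 below them. Of 8 neutrophil markers, 7 were in the background range on all arrays. The exception was Elane, the elastase of neutrophil granules, above background on all 8 arrays at 8.91, 8.82, 8.59 and 8.52 on the anti-TIE1 arrays and 8.73, 8.59, 9.02 and 8.71 on the IgG arrays. Its groups overlapped, with a difference of -0.050 (standard error 0.12). At an unadjusted p under 0.05, 1 marker in the background range, S100a9, read higher, beside 2.17% of all probe sets. The mean over the list was 7.01 to 7.24 on the anti-TIE1 arrays, against 7.04 to 7.12 on the IgG arrays, and the part of these cells in the Mmp9 value was not tested.

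The other 13 Mmps were all in the background range, and 5 read higher and 8 lower in the mean. These included the whole chromosome 9 groups: the collagenases Mmp13, Mmp8, Mmp1a and Mmp1b, the stromelysins Mmp3 and Mmp10, the macrophage elastase Mmp12, the small matrilysin Mmp7 and the tooth enamel protease Mmp20. Mmp17, Mmp19, Mmp21 and Mmp25 were the others. Mmp1b, named because its groups did not overlap, read 6.31, 6.00, 6.31 and 6.23 on the anti-TIE1 arrays and 6.41, 6.36, 6.37 and 6.42 on the IgG arrays. Array anti-TIE1 2 lay lowest, and the other anti-TIE1 arrays were just below the IgG arrays. The genes printed with an AP-1 match and a TATA box therefore stayed below the brightest background probe set under both treatments, a strict limit. The median difference over all 21 Mmps, background readings included, was -0.031.

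Adamts1, a versican- and aggrecan-cutting protease with thrombospondin repeats, was far above background at 11.14, 11.13, 11.08 and 11.29 on the anti-TIE1 arrays and 11.03, 10.99, 11.15 and 11.19 on the IgG arrays. IgG 1 and IgG 2 lay below all anti-TIE1 arrays, while IgG 3 and IgG 4 lay among them. The difference was 0.071 (standard error 0.077, 95% interval -0.10 to 0.24). Adamts5, its neighbour on chromosome 16 and an aggrecanase, was in the background range on all arrays. Adamts10, which binds the fibrillin of microfibrils, read 9.29, 9.53, 9.25 and 9.50 on the anti-TIE1 arrays, against 9.25, 9.32, 9.45 and 9.41 on the IgG arrays, with overlapping groups and a difference of 0.036 (standard error 0.087).

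Adamts9, a versican-cutting protease, was at 8.86, 8.86, 8.84 and 8.98 on the anti-TIE1 arrays and 9.16, 9.25, 9.14 and 8.49 on the IgG arrays. Array IgG 4 stood below all others, and IgG 1, IgG 2 and IgG 3 stood above all anti-TIE1 arrays. With all arrays the difference was -0.12 (standard error 0.15, exact permutation p = 0.571, limma adjusted p = 0.979), and with an array left out it ran from -0.30 (without IgG 4) to -0.042 (without IgG 2). The same array was the lowest for Thbs1, the gene of the matrix protein thrombospondin-1, at 8.52 beside 9.83, 9.83 and 10.08 on IgG 1 to 3, and the anti-TIE1 arrays were at 8.98, 9.11, 8.96 and 8.78. It was also the lowest IgG array for the platelet markers Ppbp (9.27 beside 10.54 to 10.82), Treml1 (8.14 beside at least 8.70) and Tubb1 (7.97 beside 8.36 to 8.58). What sets IgG 4 apart was not tested. Adamts12, which cuts cartilage oligomeric matrix protein, measured 8.09, 8.02, 7.99 and 8.07 on the anti-TIE1 arrays, against 8.10, 8.08, 8.09 and 8.16 on the IgG arrays. The groups met only at anti-TIE1 1, with a difference of -0.070 (standard error 0.064, exact permutation p = 0.0571).

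Adamts14, a procollagen N-proteinase, read 7.84, 7.66, 7.75 and 7.64 on the anti-TIE1 arrays and 7.80, 7.71, 7.60 and 7.65 on the IgG arrays. Adamts7, which cuts thrombospondin-1 and cartilage oligomeric matrix protein, read 7.77, 6.88, 7.57 and 7.62 on the anti-TIE1 arrays, against 7.12, 7.23, 7.41 and 7.60 on the IgG arrays. Both were in the background range on all arrays and both overlapped, and anti-TIE1 2 was the lowest array for Adamts7. The other 12 Adamts genes were also in the background range on all arrays, 6 reading higher and 6 lower. They comprised Adamts13, which trims von Willebrand factor, Adamts3, which takes part in the maturation of Vegfc, the aggrecanases Adamts4 and Adamts5, and Adamts6, Adamts8, Adamts15, Adamts16, Adamts17, Adamts18, Adamts19 and Adamts20. Over all 18 Adamts genes, 10 read higher and 8 lower, and the median difference, background readings included, was 0.027.

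**Figure D3:**
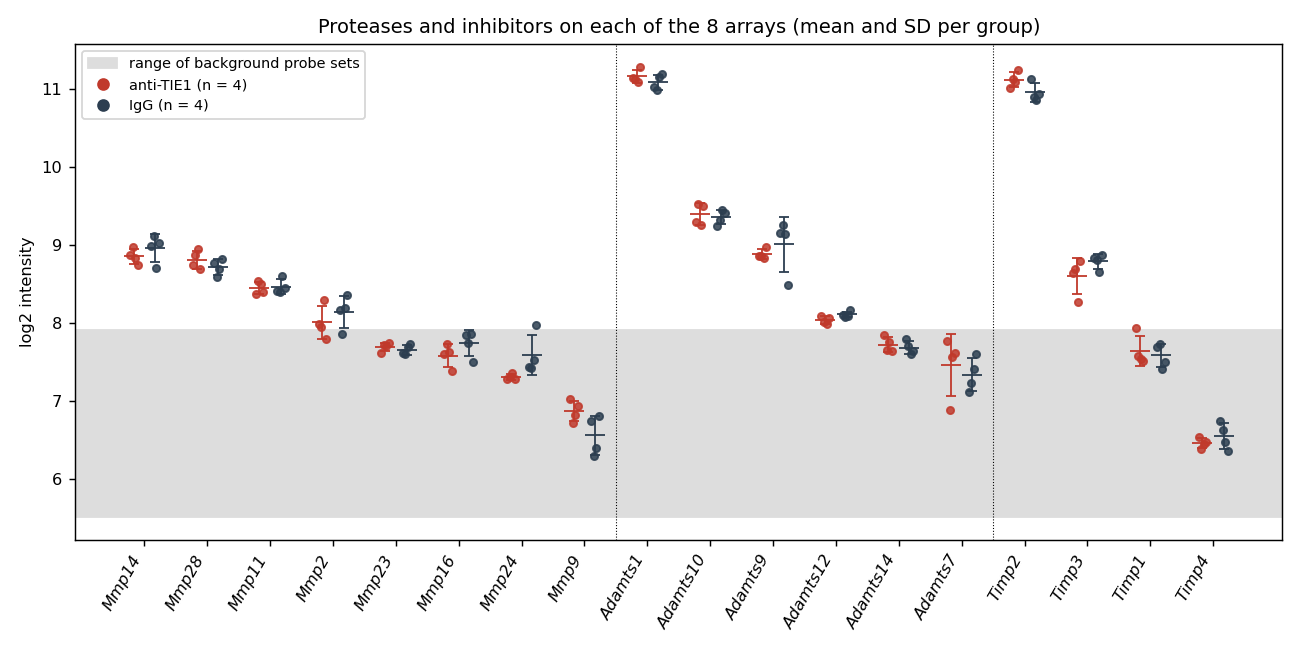
Log2 intensity (y axis) of the 18 members given with every array (x axis), with anti-TIE1 arrays in red, IgG arrays in dark blue, and mean and SD (n = 4 each) as bars. The grey band spans the background probe sets; Adamts1 and Timp2 lie near 11, Mmp9 and Timp4 within the band, and array IgG 4 stands apart below for Adamts9 (8.49) and above for Mmp24 (7.97).

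Proteases were set against inhibitors within each array, as the mean log2 intensity of the 39 proteases minus that of the 4 Timps. Since different probe sets differ in brightness for the same RNA, only the change of this value between treatments can be read. It was -1.16, -1.09, -0.97 and -1.20 on the anti-TIE1 arrays, against -1.21, -1.20, -1.01 and -1.05 on the IgG arrays. The treatments covered the same range, with means of -1.11 ± 0.10 in anti-TIE1-treated and -1.12 ± 0.10 in IgG-treated mice (SD, n = 4 each) and a difference of 0.013. Over the members above background on all arrays alone, the difference was -0.0015. The sign was not stable. With an array left out the difference ran from -0.031 (without anti-TIE1 3) to 0.049 (without IgG 3), was also below 0 without IgG 1 (-0.018) or IgG 2 (-0.014), and on bright probe sets it was -0.0395. Hybridization controls, which are spike-ins, read 10.40 to 10.51 on anti-TIE1 3, anti-TIE1 4, IgG 1 and IgG 2 and 10.79 to 11.05 on the other 4 arrays. The difference was 0.12 within the arrays of low and -0.092 within those of high controls, and the part of the controls in it was not tested.

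Pairs of a protease and an inhibitor that are known to meet were chosen after the values had been seen and carry no test. Mmp14 minus Timp2 was -2.14, -2.15, -2.26 and -2.50 on the anti-TIE1 arrays and -2.15, -1.78, -2.15 and -1.90 on the IgG arrays, a difference of -0.27. Anti-TIE1 3 and anti-TIE1 4 lay lowest, and the others met the IgG arrays near -2.15. Adamts1 minus Timp3 was 2.50, 2.43, 2.81 and 2.49 on the anti-TIE1 arrays, against 2.19, 2.18, 2.50 and 2.31 on the IgG arrays, a difference of 0.26. IgG 3 alone reached into the anti-TIE1 values. Timp2 minus Timp3, a comparison of the 2 inhibitors above background, was 2.37, 2.43, 2.82 and 2.45 on the anti-TIE1 arrays and 2.30, 2.09, 2.21 and 2.06 on the IgG arrays. This was the only pair examined without overlap, with a difference of 0.36. Timp2 (0.16) and Timp3 (-0.19) had the highest and lowest differences of the 10 members with a fold change. No other pair of these members could therefore differ more, and the lack of overlap carries no weight of its own. The pairs share Timp2 or Timp3 and so are not independent of each other, and Mmp2 minus Timp2 (-0.30) and Adamts9 minus Timp3 (0.070) overlapped as well.

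**Figure D4:**
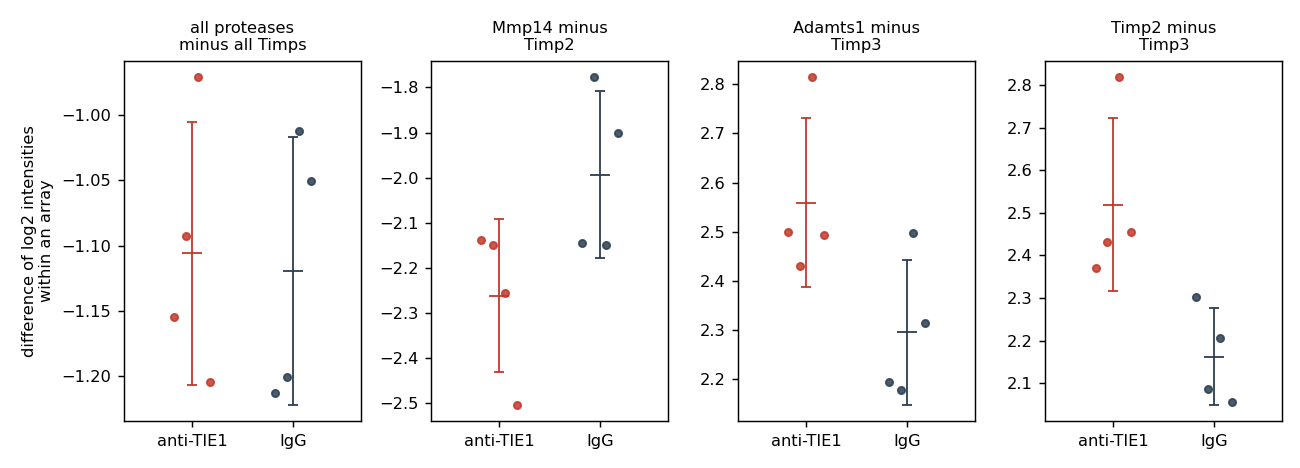
Difference of log2 intensities within an array (y axis, its own scale in each panel) for all proteases minus all Timps and for 3 pairs, anti-TIE1 left and IgG right, with mean and SD (n = 4 each). The treatments overlap in the first 3 panels. Timp2 minus Timp3 lies at 2.37 to 2.82 in anti-TIE1-treated and at 2.06 to 2.30 in IgG-treated mice. This pair was chosen after the values had been seen and joins the highest and lowest differences of the members with a fold change.

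Genes that act with these enzymes were counted from lists written from textbook knowledge, and 0 genes of any list passed an adjusted p under 0.05 with all arrays. Without IgG 4, 1 of these genes (Thbs1) and 3 cell type markers passed it, all lower, and with any other array left out none did. Of 10 measured genes listed as activators of Mmp proenzymes or related to them (Plaur and Bsg), none were higher and 2 were lower by unadjusted p (under 0.05). The list median was -0.033. The proprotein convertase Pcsk6 was at 7.77, 7.91, 7.75 and 7.56 on the anti-TIE1 arrays, against 8.03, 8.12, 8.01 and 8.05 on the IgG arrays, a difference of -0.30 (standard error 0.082, limma adjusted p = 0.805) without overlap. It stood above background on all IgG arrays but on anti-TIE1 2 alone among the anti-TIE1 arrays. Plau, the urokinase that starts the plasmin cascade, was within the background range, at 7.30, 7.36, 7.36 and 7.40 on the anti-TIE1 arrays and 7.67, 7.57, 7.63 and 7.50 on the IgG arrays. Its groups also did not overlap (limma adjusted p = 0.840), and no fold change is given. Furin, which activates the membrane-type Mmps and Mmp11, differed by 0.053 (standard error 0.11), and by -0.036 without anti-TIE1 2.

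The counts of substrates and other genes stand beside 2.17% higher and 3.15% lower among all probe sets at the same unadjusted threshold. Of 20 measured Mmp substrates in basement membrane and matrix, 1 was lower by unadjusted p (under 0.05) and none higher, the laminin-binding nidogen Nid1 (-0.29, standard error 0.11, limma adjusted p = 0.896). Nid1 read 10.31, 10.46, 10.78 and 10.39 on the anti-TIE1 arrays, against 10.69, 10.81, 10.68 and 10.91 on the IgG arrays, the groups overlapping through anti-TIE1 3. Of 14 substrates and partners of Adamts proteases, 3 were higher and 11 lower in the mean and 1, Ltbp1 (-0.20, standard error 0.090), was lower at an unadjusted p under 0.05. Thbs1 had a larger difference with a wide error (-0.61, standard error 0.28, 95% interval -1.24 to 0.016), and without IgG 4 it was -0.96 (limma adjusted p = 0.0195). IgG 4 is the array that read apart from the other IgG arrays for this gene, so leaving it out gives no separate test. With any other array left out it ran from -0.66 (without anti-TIE1 2) to -0.44 (without IgG 3), with limma adjusted p of at least 0.874. Among 10 genes listed as other metalloproteinase inhibitors or related proteins (Pcolce and Pcolce2), 1 was lower at an unadjusted p under 0.05, A2m, in the background range. The 11 genes listed as Adam sheddases or related proteins (Adam22 and Adam23) had 0 in either direction, and 5 were in the background range on all arrays. Their median, background readings included, was 0.11. Adam17 was at -0.24 (standard error 0.14, and -0.13 without anti-TIE1 3) and Adam10 at -0.068 (standard error 0.076). The 6 Adamts-like genes, which lack the protease domain, likewise had 0, with a median of 0.023.

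Markers of cells other than blood vessel endothelium moved beside these values. The mean over 8 lymphatic markers was 8.93 to 8.999 on the anti-TIE1 arrays, against 9.02 to 9.45 on the IgG arrays, and 4 of the 8 were lower at an unadjusted p under 0.05. By group means 6 of the 8 were lower and 2, Lyve1 and Flt4, were higher. Of 7 platelet markers 4 were lower at the same unadjusted threshold, with list means of 8.40 to 8.56 on the anti-TIE1 and 8.44 to 8.98 on the IgG arrays. By group means 5 of the 7 were lower and 2 higher. Without IgG 4, 5 lymphatic and 4 platelet markers were lower at an unadjusted p under 0.05, beside 742 of all 22204 probe sets. Of these, Mmrn1 and Ccl21a of lymphatics and Ppbp of platelets passed an adjusted p under 0.05 (limma adjusted p = 0.0179 for Mmrn1 and Ppbp and 0.0245 for Ccl21a). With IgG 4 left out, 18 of all 22204 probe sets passed it. With any other array left out, no lymphatic or platelet marker passed it. Of 8 alveolar type 2 markers 4 were higher at an unadjusted p under 0.05 (1 without IgG 2 and 6 without IgG 4, beside 527 and 548 of all 22204 probe sets). By group means 7 of the 8 were higher and 1 lower, with list means of 8.99 to 9.47 on the anti-TIE1 and 8.62 to 9.11 on the IgG arrays. Of 8 macrophage and monocyte markers 2 read lower without overlap, Mrc1 (limma adjusted p = 0.440) and Itgam (limma adjusted p = 0.840), and 0 of the 8 stood above background on all arrays. By group means 5 of the 8 read lower and 3, Adgre1, Lyz2 and Csf1r, read higher. Mrc1, above background on IgG 2 and IgG 3 alone, read 7.10, 7.37, 7.02 and 7.19 on the anti-TIE1 arrays, against 7.66, 8.03, 8.01 and 7.60 on the IgG arrays, and Itgam was in the background range. That list's mean was 7.05 to 7.23 on the anti-TIE1 and 7.14 to 7.36 on the IgG arrays. Of 8 pericyte and smooth muscle markers 1 was higher, Acta2 (0.20, standard error 0.089, limma adjusted p = 0.930), with list means of 7.46 to 7.56 on the anti-TIE1 and 7.38 to 7.52 on the IgG arrays. Of 7 fibroblast markers, a cell type rich in Mmp2, Mmp14 and Timps, 0 passed an unadjusted p under 0.05 in either direction. In that list 5 were in the background range on all arrays, and the list mean was 7.35 to 7.56 on the anti-TIE1 arrays and 7.27 to 7.67 on the IgG arrays. The part of any of these cells in the values of the proteases and inhibitors was not tested. All 9 measured endothelial markers were above background on all arrays, with a median difference of 0.020.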

How the data were processed

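RNA of sorted lung endothelial cells was hybridized to 8 Clariom S arrays. The deposited values are linear intensity that the authors had normalized between arrays; the study's methods name Ingenuity Pathway Analysis for normalization and analysis, and the normalization method and annotation are not given in the sources used here. The log2 values of these deposited intensities entered a linear model for each probe set (limma 3.58.1, R 4.3.3, eBayes without trend), anti-TIE1 minus IgG, with Benjamini-Hochberg adjustment over 22204 probe sets that are not array controls. Single values were also tested by two-sided exact permutation over 70 arrangements. The titles call the replicates biological. The table held 0 columns of other samples.

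Each member has 1 probe set, so averaging probe sets changes nothing. Every array is given for all Timps, the 6 brightest Mmps, the 6 brightest Adamts and members at an unadjusted p under 0.05; other members are given by range. The members and gene lists were chosen with earlier results of these data known. The background limit, the motifs, the printed windows, the pairs, and values within arrays of low or high hybridization controls were chosen after seeing the data. Other lists name up to 4 genes, and Plau, A2m, Furin, Adam10, Adam17, Mrc1, Itgam and S100a9 were named after their values were seen. Each array was also left out for the other lists, a choice made after seeing the data. Alternatives were quantile normalization, bright probe sets (mean at or above 7.54, log2), the variance model, array weights, blocks, each array left out, and the exact Mann-Whitney test.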

Additional observations from a re-analysis of the deposited data

Results flagged for a closer look

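In 2 of 44 groups of 4 arrays, counted over members given in every array and the summaries of proteases and inhibitors, a single array stood apart from the rest by Dixon's criterion, which chance meets in about 1 in 20 groups. For Adamts9, array IgG 4 (8.49) lay below the other IgG arrays by a gap of 0.853 of the group's whole range. For Timp1, array anti-TIE1 1 (7.93) lay above the other anti-TIE1 arrays by a gap of 0.861 of the range, and it was the only array on which Timp1 exceeded background.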

How the results depend on the processing

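No member passed adjustment under any alternative run, though the exact Mann-Whitney test could hardly give such a call with 4 against 4 arrays. Over all probe sets, leaving out an array gave 0 to 18 calls: 18 without IgG 4, 1 without IgG 1 and 1 without anti-TIE1 4. Members at an unadjusted p under 0.05 numbered 0 to 3 higher and 0 to 3 lower with an array left out (444 to 548 higher and 593 to 804 lower among all probe sets). They were 0 and 0 on bright probe sets (301 higher and 340 lower among all probe sets), 0 and 2 by the exact Mann-Whitney test (307 and 396 among all), 2 higher with an intensity trend and 0 lower with array weights. Within arrays of low hybridization controls they were 2 higher and 6 lower (560 and 853 among all), and within those of high controls 3 and 2 (506 and 552 among all). The replicate number as a block left 1 and 1 (457 and 684 among all). Same-numbered arrays deviated with correlations of -0.050 to 0.0066 over 22202 probe sets. A factor shared by such arrays that acts on some genes only was not tested.

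With an array left out, the Adamts median ran from -0.0096 (without IgG 3) to 0.039, the Mmp median from -0.047 to -0.011 and the Timp median from -0.078 to 0.032, and the last was 0.057 on bright probe sets. Proteases minus inhibitors ran from -0.031 to 0.049 and was -0.0395 on bright probe sets. Within low controls the Mmp median was 0.016, the Timp median -0.20 and proteases minus inhibitors 0.12, and within high controls the last 2 were 0.11 and -0.092. Of 302 alternative values of the 18 members given in full, 283 kept their sign and 19 reversed, and 7 members had no reversal. Values of Mmp23, Adamts7, Adamts14, Timp1 and Timp4 here are differences between readings in or near the background range and not fold changes. Within high controls the reversed differences were -0.036 (Adamts1), -0.021 (Adamts10), 0.049 (Adamts9), 0.057 (Mmp14), -0.045 (Mmp23), -0.18 (Adamts7) and 0.040 (Timp4). Within low controls they were 0.041 (Mmp11), 0.030 (Mmp2), -0.054 (Adamts14) and -0.18 (Timp1). With an array left out, Adamts10 ran from -0.0084 (without anti-TIE1 2) to 0.083, also reversing without IgG 1 (-0.00059). Mmp11 ran from -0.046 to 0.031 (without IgG 3), also reversing without anti-TIE1 1 (0.011) and anti-TIE1 4 (0.0019), and was 0.0019 with array weights. Adamts14 ran from -0.0034 (without anti-TIE1 1) to 0.074, and Timp1 from -0.039 (without anti-TIE1 1) to 0.11. The cause was not tested. Averaging probe sets was not run, since each member has 1. Signal in the background range limits 30 of the 43 members.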
